A study of Homo sapiens with 4 samples.

Results

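The genes described here encode the constitutive subunits of the proteasome: the 7 alpha and 7 beta subunits of the core particle, and the 6 ATPases, 4 non-ATPase base subunits and 8 lid subunits of the regulatory particle. The members were a list of 32 gene symbols, matched through the Ensembl identifiers to 32 of the 19901 genes in the count table, of which 30 had enough counts to be tested. Nascent RNA was measured by TT-Seq, in which cells are given 4-thiouridine (4sU) for a short pulse and only the labelled RNA is purified and sequenced. HCT116 cells, a human colorectal carcinoma line, carried the genotype KAP1_dTAG_CloneD5, a degradation tag on the chromatin protein KAP1 (encoded by TRIM28), and received DMSO vehicle or the degrader dTAG for 8 h before 10 min with 500 μM 4sU. There were 2 libraries in each group, and both groups carried the same tag and came from the same clone, so that differences between clones were not sampled. The dishes of a condition were pooled for each RNA preparation, and the p-values below measure the spread between libraries that the labels number as replicates.

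The proteasome is the protease that takes apart proteins marked with ubiquitin. Its barrel-shaped core holds the proteolytic sites on the inner beta rings, the alpha rings guard the entrance, and the regulatory particle binds ubiquitin chains, removes them and threads the unfolded substrate inward. Degraders of the dTAG kind bring a tagged protein to a ubiquitin ligase, after which the proteasome destroys it. Proteasome genes are expressed in nearly all cells, and the transcription factor NRF1, encoded by NFE2L1, raises them together when proteasome activity falls short, through antioxidant response elements in their promoters.

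The promoter windows that hold the letters of that element are printed here, because they mark the members that carry a candidate NRF1 sequence. RefSeq promoters (GRCh38.p14, from 250 bases before to 50 after each listed start) were at hand for 27 of the 32 members, and not for PSMA7, PSMB1, PSMB6, PSMB7 or PSMD4. The core TGACNNNGC, where N is any base, was searched on both strands and was present in 8 of the 27, or 29.6%, against 16.1% of all 27305 genes in the table. Capitals mark the core, and each window is shown on the strand on which the core reads forward.
ADRM1, chr20:62302750-62302776, plus strand: gctcccctaTGACACAGCaacaatagg
PSMA4, chr15:78540651-78540677, plus strand: tgggcacgaTGACTCTGCaccgcctcc
PSMB3, chr17:38752628-38752654, plus strand: cctccgtttTGACTTTGCaaccaaact
PSMC4, chr19:39971183-39971209, minus strand: cctccatagTGACCAAGCcggcctctg
PSMC5, chr17:63827655-63827681, minus strand: gggcggcgcTGACACAGCagatccggt
PSMD1, chr2:231056897-231056916, plus strand: ggaggcgacTGACTGAGCag
PSMD3, chr17:39980761-39980787, plus strand: cccctttgtTGACTCGGCcatcggcct
PSMD12, chr17:67366725-67366751, minus strand: gacaaaaccTGACGCTGCaggctggag

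PSMD3 held the core a further time, and the PSMA4 and PSMC5 matches belonged to alternative starts downstream of the canonical ones. Other promoter letters were also counted on both strands. The CCAAT box was in 16 of the 27 members (59.3%) and in 39.7% of all genes, and the ETS core CCGGAAG was in 10 (37.0%) and 12.2%. The cyclic AMP response element TGACGTCA was in 0 of 27 and in 2.25% of all genes. These matches describe letters in a window and not occupied sites, and no searched motif contains another.

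Each library held between 93105627 and 102314741 gene counts, and the tested members had between 2070 and 36538 counts in a library. The spread between libraries, rather than counting error, set the precision. That spread was estimated by edgeR with information shared over genes, so an SE is not the spread of a gene's own 2 libraries. Epithelial genes marked the cells as labelled, with 133 CPM (a gene's share of the scaled library counts) of EPCAM, 162 of CDH1, 434 of KRT8, 237 of KRT18 and 166 of KRT19 in the DMSO libraries, while the villus gene VIL1 had 1 to 15 counts. The leukocyte gene PTPRC had 0 or 1 count, and PECAM1 and DES stayed under 50 counts in every library. COL1A1 stood at 5.35 CPM in DMSO. In bulk libraries fewer cells of a type and less RNA per cell cannot be told apart. TRIM28 RNA does not check the labels, since the degrader acts on the protein. Its level fell from 65.7 ± 5.72 CPM (SD, n = 2) in DMSO to 50.7 ± 3.96 in dTAG, a log2 fold change of -0.37 (SE 0.092, adjusted p = 0.019, from edgeR's quasi-likelihood F test, Benjamini-Hochberg adjusted over the 12612 genes tested). With the GC and length trend of each library removed it was -0.10 (adjusted p = 0.17) and no longer called. The call was kept in 8 of 18 alternative analyses. It was also lost with the length trend alone removed (-0.20, adjusted p = 0.12) and with the ERCC spike-in factor as a covariate (-0.19, adjusted p = 0.12). A replicate block (-0.37, adjusted p = 0.059) and ERCC totals as library sizes (0.28, adjusted p = 0.65) ended it too. So did leaving out dTAG replicate 1 or dTAG replicate 2. Within each group the replicate difference of a gene followed its GC content, with a Spearman correlation over all tested genes of 0.75 in the DMSO pair and -0.43 in the dTAG pair.

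The counts of 3 alpha subunit genes did not measure the canonical transcript. PSMA2 (chr7:42916857-42932223) had 0 counts in all 4 libraries, and PSMA6 (chr14:35278633-35317493) had 2 and 0 counts in DMSO and 11 and 9 in dTAG. Both lie almost wholly inside another gene of the table on the same strand, ENSG00000256646 for PSMA2 and ENSG00000258790 for PSMA6, so that only 49 of the 15367 bases of PSMA2 and 19 of the 38861 bases of PSMA6 were free of it. Across the table, 475 of 489 genes lying wholly inside same-strand genes (97.1%) had 0 counts in every library, against 112 of 581 inside opposite-strand genes only (19.3%) and 1581 of 13358 that overlapped no gene (11.8%). The 0 of PSMA2 is therefore no measure of its transcription. The overlapping gene at PSMA2, which extends into the neighbouring gene C7orf25, had 1179 and 1063 counts in DMSO and 1106 and 1105 in dTAG, a log2 fold change of 0.05 (SE 0.13, adjusted p = 0.85). PSMA1 was affected in another way. Its interval in the table (chr11:14504874-14643635) was 8.95 times as long as its canonical transcript, of which only 42 bases, 0.271%, were free of the same-strand gene ENSG00000256206, so that its 2294 to 2693 counts came almost entirely from upstream of the canonical start. The other 29 tested members had canonical transcripts free of same-strand genes, although 14 of the 32 members have named pseudogenes, 33 in all and 13 of them for PSMC1, with which reads of near-identical sequence could be shared.

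Subunits that enter the particle in equal numbers differed in nascent RNA per kilobase. Counts covered introns as well as exons, so levels between genes are compared here as CPM per kilobase (CPM/kb) of gene interval not shared with a same-strand gene. The median member stood at 4.83 CPM/kb in DMSO, against 1.12 over all tested genes, and 28 of 30 members lay above the 75th percentile of tested genes. The highest level was that of PSMB4, a structural beta subunit, at 14.1 ± 0.223 CPM/kb (SD, n = 2). It was followed by the ATPase PSMC5 at 13.3 ± 0.238, the lid subunit PSMD7 at 11.7 ± 0.537 and the caspase-like catalytic subunit PSMB6 at 11.5 ± 0.985. PSMB4 and PSMC5 differed by more than their SDs, while PSMD7 and PSMB6 did not. At the low end PSMA1, measured outside its canonical transcript, stood at 0.204 ± 0.0232 CPM/kb. Next were the ATPase PSMC2 at 2.22 ± 0.0907 and the scaffold PSMD1 at 2.56 ± 0.203, so that without PSMA1 the range over these intervals was 6.35-fold. The PSMC2 interval was 1.16 times its canonical transcript, so its order against PSMD1 depends on the length used. The middle of the members was narrow, from 3.53 to 7.37 CPM/kb between the quartiles. The catalytic subunits did not share a level, since chymotrypsin-like PSMB5 stood at 4.42 ± 0.477 and trypsin-like PSMB7 at 4.26 ± 0.120 CPM/kb, under PSMB6. The PSMB5 interval was 2.07 times its canonical transcript, which adds length to its denominator. The highest genes, PSMB4, PSMC5, PSMD7 and PSMB6, had short intervals of 2411, 4875, 9514 and 2360 bases. PSMC2 and PSMD1 had 25142 and 115964. Not all followed this order, since PSMD6, with 13462 bases, stood at 3.10 CPM/kb, under PSMB7 with 61979. The median length was 36149 bases over all tested genes and 16801.5 over the members. The part of length in these levels was not tested.

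**Figure D1:**
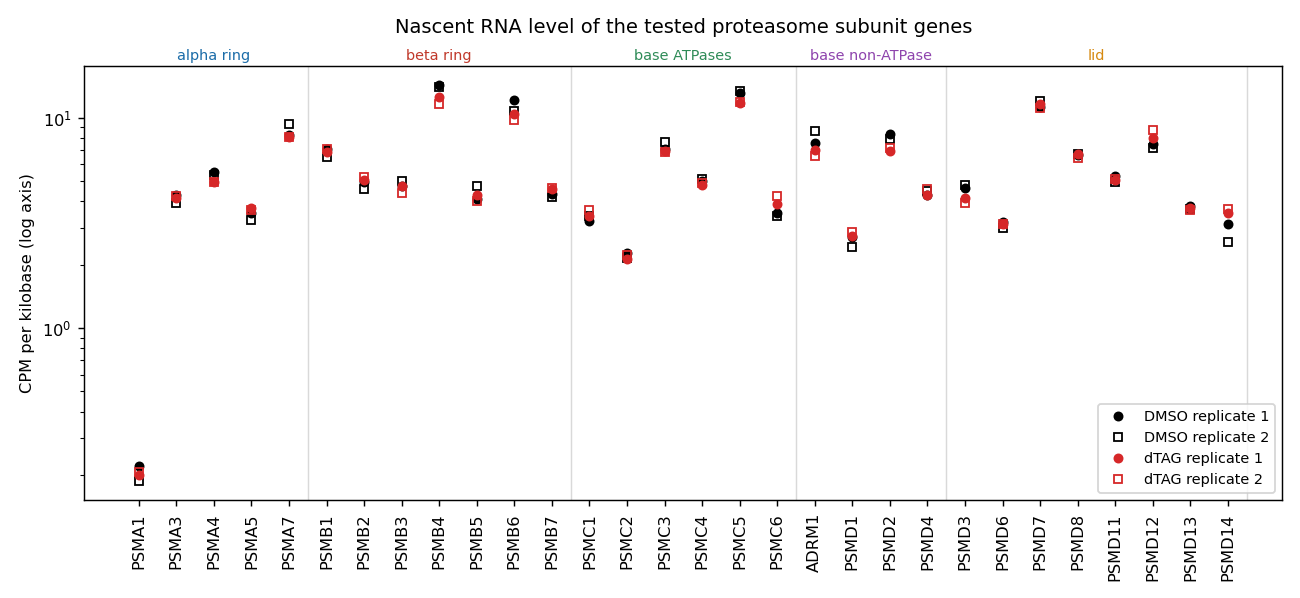
Level of each of the 30 tested proteasome subunit genes in every library, in CPM per kilobase on a log axis, grouped by place in the particle; black marks are DMSO and red marks dTAG, with circles for replicate 1 and squares for replicate 2. The 4 libraries of a gene lie close together, PSMB4 and PSMC5 stand highest, and PSMA1 stands apart at the bottom.

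The comparison of dTAG with DMSO asks whether proteasome subunit genes changed their nascent transcription after 8 h of KAP1 degradation, which itself runs through the proteasome. Of the 30 tested members, 1 rose, the lid deubiquitinase gene PSMD14, and 0 fell at an adjusted p under 0.05. Over all tested genes 7.1% were called, 3.44% higher and 3.66% lower. The median log2 fold change of the members was -0.03, beside -0.01 over all tested genes, and the members' values ran from -0.25 for ADRM1 to 0.34 for PSMD14. At an unadjusted p under 0.05 there were 3 higher members, PSMD14, PSMC6 and PSMD12, and 4 lower ones, ADRM1, PSMB4, PSMD2 and PSMD3. That is 7 of 30, beside 26.6% of all tested genes, and DESeq2 gave the same counts of 1 called higher and 0 called lower. As a sum over the members, the DMSO libraries held 3132 and 2996 CPM and the dTAG libraries 3160 and 3217, with a log2 ratio of the means of 0.06, beside 0.07 for the same sum over all tested genes. The counts of called members depended on single libraries: 5 were called higher and 5 lower without DMSO replicate 1, where 43.4% of all genes tested were called, and 1 higher (PSMC6) and 2 lower (PSMD2 and PSMB6) without DMSO replicate 2, where 11.8% were. No member was called, or had an unadjusted p under 0.05, without dTAG replicate 1 or dTAG replicate 2, where 1.09% and 0.535% of genes were called.

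The data bounded these changes. The 95% interval of the log2 fold change lay within 1.5-fold either way for all 30 tested members, which was so for 79.3% of all tested genes. The half-widths of the intervals were 0.17 to 0.23 on the log2 scale. Both dTAG libraries lay above both DMSO libraries for 7 members and below them for 11, where the shares over all tested genes were 28.1% and 30.7%. The 7 were PSMA5, PSMB2, PSMB7, PSMC6, PSMD1, PSMD12 and PSMD14. The 11 were ADRM1, PSMA4, PSMA7, PSMB3, PSMB4, PSMB6, PSMC3, PSMC4, PSMC5, PSMD2 and PSMD3. Both counts were near what those shares give. All of these values are relative to the bulk of genes: with the ERCC totals, 0.0103% to 0.0265% of gene counts, as library sizes, the median log2 fold change was 0.61 for the members and 0.63 for all tested genes, and edgeR called 0 genes (229 at an unadjusted p under 0.05). The ERCC RNAs were added to the purified nascent RNA, and the highest share was that of DMSO replicate 2, beside 0.0150% in DMSO replicate 1.

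**Figure D2:**
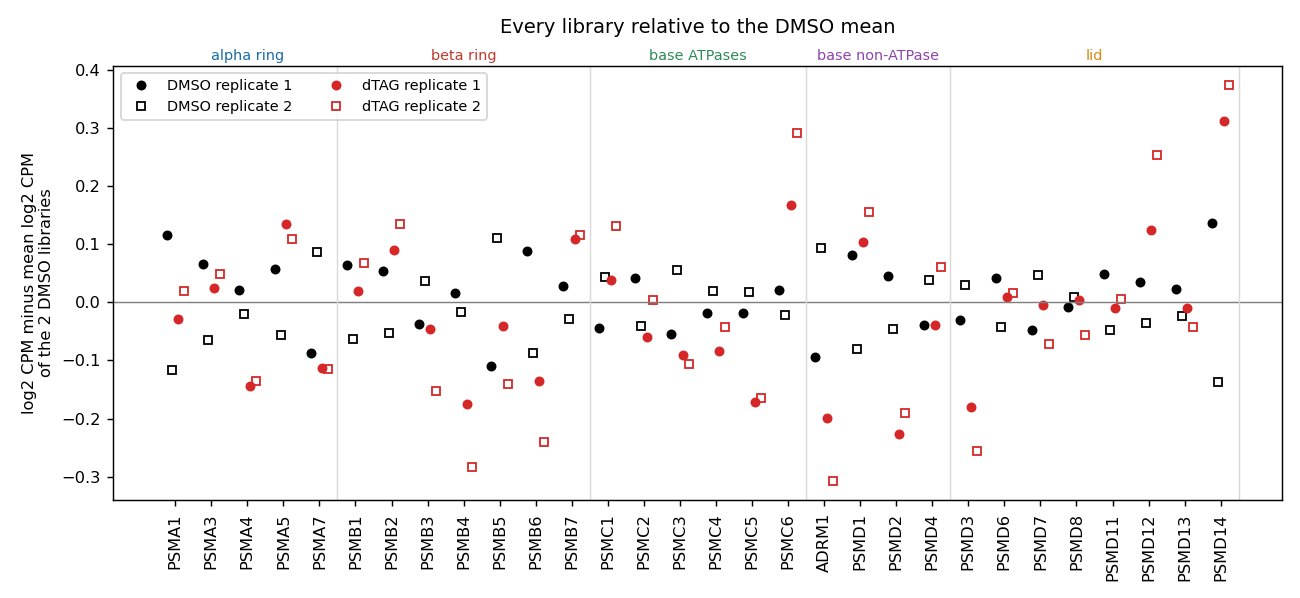
Log2 CPM of each tested member in each of the 4 libraries, minus the mean of its 2 DMSO libraries; the line at 0 is the DMSO mean, with DMSO in black and dTAG in red. Both red marks lie farthest above 0 for PSMD14 and PSMC6, and farthest below 0 for ADRM1, PSMB4, PSMD2 and PSMD3.

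The lid strips ubiquitin from substrates and holds the regulatory particle together. PSMD14 (chr2:161308038-161411717, plus strand), its metalloprotease that cuts the ubiquitin chain off at the entry of the core, stood at 323 and 267 CPM in DMSO and at 365 and 380 in dTAG. The groups did not overlap, although the DMSO libraries lay farther apart than the dTAG libraries. The means were 295 ± 39.5 and 373 ± 11.04 CPM (SD, n = 2 each), a log2 fold change of 0.34 (SE 0.10, 95% interval 0.13 to 0.55, Benjamini-Hochberg adjusted p = 0.049 in edgeR's quasi-likelihood F test). The call was close to the threshold. It was lost in 9 of 18 alternative analyses, with the adjusted p between 3.5e-08 and 0.92. Leaving out DMSO replicate 2, dTAG replicate 1 or dTAG replicate 2 ended it, at an adjusted p of 0.065, 0.45 and 0.92, and with the ERCC factor as a covariate its log2 fold change was 0.12 (adjusted p = 0.23), although the value was above 0 in all 18. PSMD14 also had the lowest GC content of the members, 35.4%, and after the trend of each library on GC content and gene length was removed its log2 fold change was 0.13 (adjusted p = 0.027). Its promoter, on the plus strand of GRCh38.p14, held a CCAAT box and an ETS core but no antioxidant response element core, and both windows are shown with the motif in capitals as the promoter of the member that was called.
PSMD14, CCAAT, chr2:161308368-161308390: ccgtcgtctCCAATtggccgtcg
PSMD14, ETS core, chr2:161308412-161308436: ctagtgaacCCGGAAGtgcttcgcg

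PSMD3, a scaffold subunit of the lid, went the other way without passing the test. It stood at 79.2 and 82.6 CPM in DMSO and at 71.4 and 67.8 in dTAG. Its log2 fold change was -0.22 (SE 0.083, adjusted p = 0.10), and the groups did not overlap. PSMD12, another scaffold subunit, stood at 215 and 205 CPM in DMSO and 229 and 251 in dTAG, a log2 fold change of 0.19 (adjusted p = 0.18). The other 5 lid genes were near 0, from -0.04 for PSMD7, the catalytically inactive partner of PSMD14, to 0.01 for PSMD6. PSMD8, PSMD11 and PSMD13 lay between. The lid median was -0.01, so the opposite signs of PSMD14 and PSMD3 were within 1 subcomplex.

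Of the base subunits that are not ATPases, 3 bind ubiquitin or ubiquitin-like domains: ADRM1, PSMD4 and PSMD2. None of them passed the test, and their values did not run together. ADRM1 (chr20:62302093-62308862), the receptor that also anchors the deubiquitinase UCHL5, stood at 51.4 and 58.5 CPM in DMSO and at 47.7 and 44.3 in dTAG, a log2 fold change of -0.25 (SE 0.093, adjusted p = 0.091). This was the lowest value of any member, in the gene with the highest GC content of the members, 64.1%, and after the removal of the GC and length trend it was 0.080. PSMD2 (chr3:184298709-184309054), the scaffold that docks ubiquitin shuttles, stood at 87.1 and 81.7 CPM in DMSO and at 72.1 and 73.9 in dTAG (log2 fold change -0.21, adjusted p = 0.12). Its groups did not overlap either. PSMD4 (chr1:151254703-151267479), the receptor with ubiquitin-interacting motifs, stood at 54.6 and 57.6 CPM in DMSO and at 54.6 and 58.4 in dTAG, with a log2 fold change of 0.01 and an interval of -0.17 to 0.19. Its libraries interleaved. PSMD1 (chr2:231056864-231172827), the other large scaffold, stood at 314 and 280 CPM in DMSO and at 319 and 330 in dTAG (log2 fold change 0.13, adjusted p = 0.39). The base scaffolds PSMD1 and PSMD2 thus had values on opposite sides of 0, and neither was called. With the GC and length trend removed both were below 0, PSMD1 at -0.033 and PSMD2 at -0.10.

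The 6 ATPases form the ring that unfolds substrates, and none was called. PSMC6 (chr14:52707172-52728587) had the highest value, at 75.3 and 73.1 CPM in DMSO and 83.3 and 90.7 in dTAG, a log2 fold change of 0.23 (SE 0.084, adjusted p = 0.092). PSMC5 (chr17:63827152-63832026) had the lowest, at 64.0 and 65.7 CPM in DMSO and 57.6 and 57.9 in dTAG, a log2 fold change of -0.17 (adjusted p = 0.20). In both genes the groups did not overlap. The other 4 ranged from -0.10 for PSMC3 to 0.09 for PSMC1, and the median of the ring was -0.05.

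The beta ring carries the proteolytic sites, and none of its 7 genes was called. Chymotrypsin-like PSMB5 (chr14:23016543-23035230), the target of proteasome inhibitor drugs, stood at 76.4 and 89.0 CPM in DMSO and at 80.2 and 74.8 in dTAG (log2 fold change -0.09, interval -0.28 to 0.09). The groups overlapped. Caspase-like PSMB6 (chr17:4796144-4798503) stood at 28.8 and 25.5 CPM in DMSO and at 24.6 and 22.9 in dTAG (log2 fold change -0.19, adjusted p = 0.26). Trypsin-like PSMB7 (chr9:124353466-124415444) stood at 269 and 259 CPM in DMSO and at 285 and 286 in dTAG (log2 fold change 0.11, adjusted p = 0.43). The catalytic genes thus had values of either sign and no called change. Of the structural beta genes, PSMB4 (chr1:151399534-151401944) had the lowest value of the ring, with 34.4 and 33.6 CPM in DMSO and 30.1 and 27.9 in dTAG, a log2 fold change of -0.23 (SE 0.098, adjusted p = 0.15). PSMB1 was at 0.04, PSMB2 at 0.11 and PSMB3 at -0.10, and the ring's median was -0.09.

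The alpha ring forms the gate of the core, and of its 5 tested genes none was called. PSMA5 (chr1:109399031-109426427) had the highest value, from 96.6 and 89.3 CPM in DMSO to 101.99 and 100.2 in dTAG, a log2 fold change of 0.12 (adjusted p = 0.36). PSMA4 (chr15:78540405-78552419) had the lowest, at 66.4 and 64.5 CPM in DMSO and 59.2 and 59.6 in dTAG, a log2 fold change of -0.14 (adjusted p = 0.29). In neither gene did the groups overlap. PSMA1 stood at 27.2 and 23.1 CPM in DMSO and at 24.6 and 25.4 in dTAG, with a log2 fold change of -0.01 that concerns the region upstream of its canonical start. PSMA3 was at 0.04 and PSMA7 at -0.12, and the median of the ring was -0.01.

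**Figure D3:**
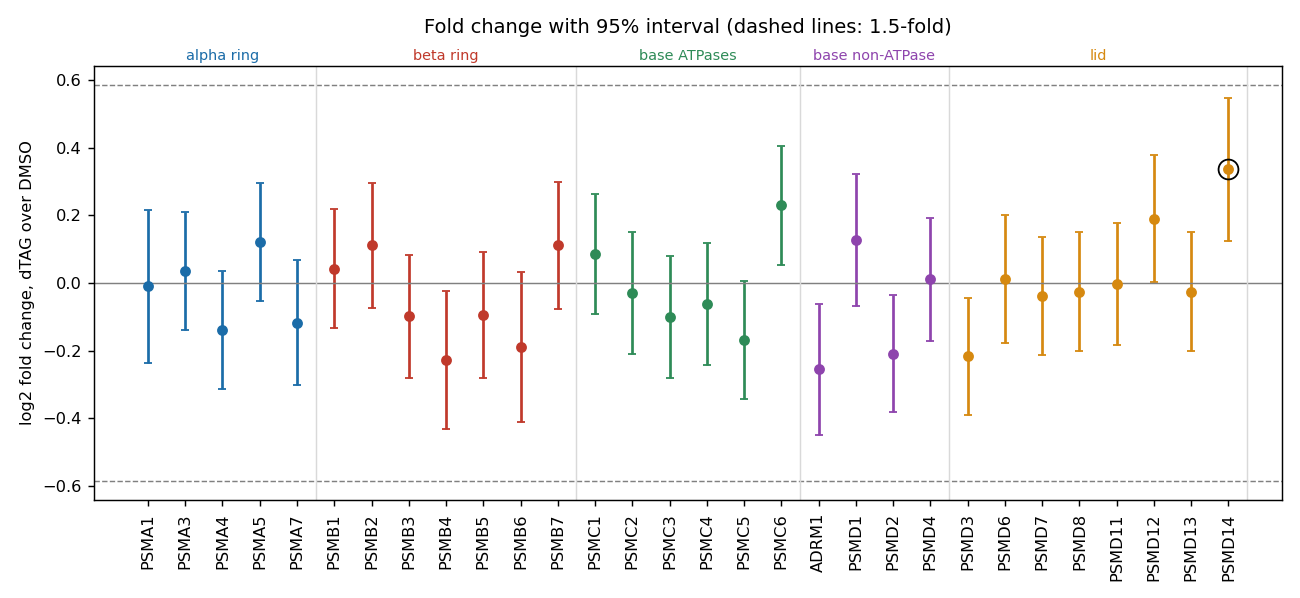
Log2 fold change of dTAG over DMSO for the 30 tested members, with points for the fitted value and bars for its 95% interval; dashed lines mark 1.5-fold either way and the circle marks the called gene. Every interval lies between the dashed lines, and PSMD14 is the circled gene at 0.34.

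Of the 8 genes with the candidate antioxidant response element printed above, none was called. In 6 of them both dTAG libraries lay below both DMSO libraries, and in 2 both lay above, where the shares over all tested genes were 30.7% and 28.1%. Below 0 were ADRM1 at -0.25, PSMD3 at -0.22, PSMC5 at -0.17, PSMA4 at -0.14, PSMB3 at -0.10 and PSMC4 at -0.06. Above 0 were PSMD12 at 0.19 and PSMD1 at 0.13. The 2 above 0 had a GC content of 40.0% and 37.9%, and the 6 below 0 had 42.3% to 64.1%. With the GC and length trend removed, ADRM1 was at 0.080, PSMC4 at 0.067, PSMB3 at 0.0068, PSMC5 at -0.016, PSMD3 at -0.11 and PSMA4 at -0.16. PSMD12 was then at 0.10 and PSMD1 at -0.033. PSMA4 was called lower there, where 18.1% of all tested genes were called. The PSMA4 and PSMC5 matches belonged to alternative starts. The part of base composition in the split above and below 0 was not tested.

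Among the members, the sign of the fold change followed base composition and gene length. Of the 15 members with a GC content under the members' median of 43.9%, 10 had a log2 fold change above 0 and 5 below, and in the 15 at or over it 2 were above 0 and 13 below. Split by length at 16802 bp, 2 of the 15 shorter genes and 10 of the 15 longer ones were above 0. Over the 30 tested members the Spearman correlation of the log2 fold change with GC content was -0.78 and with length 0.79, and over all 12612 tested genes it was -0.56 and 0.42. These correlations run across genes that share the 4 libraries, and genes are not independent replicates. The same dependence was present between libraries of 1 group, where the members' difference of replicate 2 minus replicate 1 correlated with GC content at 0.64 in DMSO and -0.66 in dTAG. With each library's trend on GC content and then length removed, the members' log2 fold changes spanned -0.16 to 0.16, their SD was 0.087 in place of 0.14, and their correlation with GC content was 0.19. In that analysis PSMD14 was called higher and PSMA4 lower (-0.16, adjusted p = 0.035), where 18.1% of all tested genes were called. GC content, length and the treatment's effect cannot be told apart gene by gene with 2 libraries in each group.

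**Figure D4:**
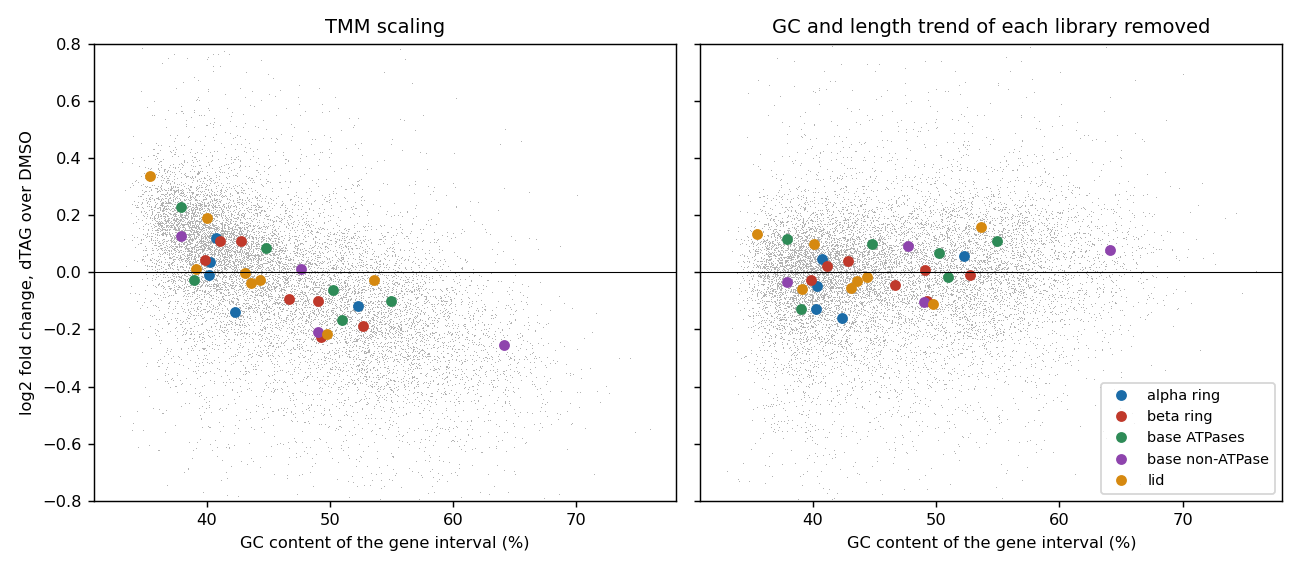
Log2 fold change of dTAG over DMSO against the GC content of the gene interval in percent, with members as coloured points by place in the particle and all tested genes as small grey points, before (left) and after (right) each library's GC and length trend was removed; a few genes beyond the vertical limits are not drawn. The members slope downward on the left, from PSMD14 at 35.4% to ADRM1 at 64.1%, and lie between -0.16 and 0.16 on the right.

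The rest of the pathway was read from 37 listed genes, of which 31 were tested, 2 rose and 1 fell, where 7.1% of all tested genes were called. At an unadjusted p under 0.05 there were 11 of the 31, beside 26.6%. UCHL5 (chr1:193012250-193060080), the deubiquitinase held by ADRM1, stood at 82.5 and 71.1 CPM in DMSO and at 98.8 and 99.2 in dTAG. It rose by 0.37 on the log2 scale (SE 0.088, adjusted p = 0.016 in the edgeR fit). NFE2L2 (chr2:177227595-177392697), which encodes the oxidative stress factor NRF2, stood at 260.5 and 256 CPM in DMSO and at 316 and 325 in dTAG, and rose by 0.31 (SE 0.090, adjusted p = 0.042). UBB (chr17:16380798-16382745), a polyubiquitin gene, fell from 108 and 106 CPM in DMSO to 84.2 and 79.9 in dTAG, a log2 fold change of -0.39 (SE 0.082, adjusted p = 0.0071). In each of the 3 the groups did not overlap. UCHL5 had a GC content of 35.0%, NFE2L2 40.6% and UBB 51.4%, so the 2 that rose lay under the median GC content of all tested genes, 44.9%, and the 1 that fell lay over it. With the GC and length trend removed all 3 were called in the same direction at smaller values, 0.17 for UCHL5, 0.20 for NFE2L2 and -0.22 for UBB. With the length trend alone removed UBB was at -0.12 and not called (adjusted p = 0.34). Leaving out dTAG replicate 1 or dTAG replicate 2 ended all 3 calls. ERCC totals as library sizes did so too, and put UBB at 0.25, or -0.39 relative to the median of all genes. A replicate block in the edgeR fit ended the calls of UCHL5 (adjusted p = 0.056) and NFE2L2 (adjusted p = 0.24). Upper-quartile factors ended that of NFE2L2 (adjusted p = 0.066). The ERCC factor with the likelihood ratio test ended that of UCHL5 (adjusted p = 0.075). UCHL5 and NFE2L2 each lost the call in 5 of 18 alternatives.

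No other related gene was called without that removal. RPS27A, which encodes ubiquitin fused to a ribosomal protein, was at -0.19. The 4 enzymes and scaffolds that associate with the particle were all higher in both dTAG libraries, which 28.1% of all tested genes were, with USP14 at 0.16, UBE3C at 0.21 and ECPAS at 0.21 beside UCHL5, and had a median GC content of 38.7%. Of the NRF1 pathway, NFE2L1 itself was at -0.01 (interval -0.18 to 0.16) and, with the GC and length trend removed, was called higher at 0.18 (adjusted p = 0.043, where 18.1% of tested genes were called), DDI2, the protease that activates it, at 0.16, and NGLY1, its deglycosylase, at 0.08. The 8 tested assembly chaperones had a median of 0.06, and among them POMP, which matures the core, was at 0.08. Activators lay on either side of 0, with PSME1 at -0.19, PSME2 at -0.24 and PSME4 at 0.20. The ubiquitin shuttle gene RAD23B was at 0.23. SEM1, the smallest lid subunit, was at 0.13.

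**Figure D5:**
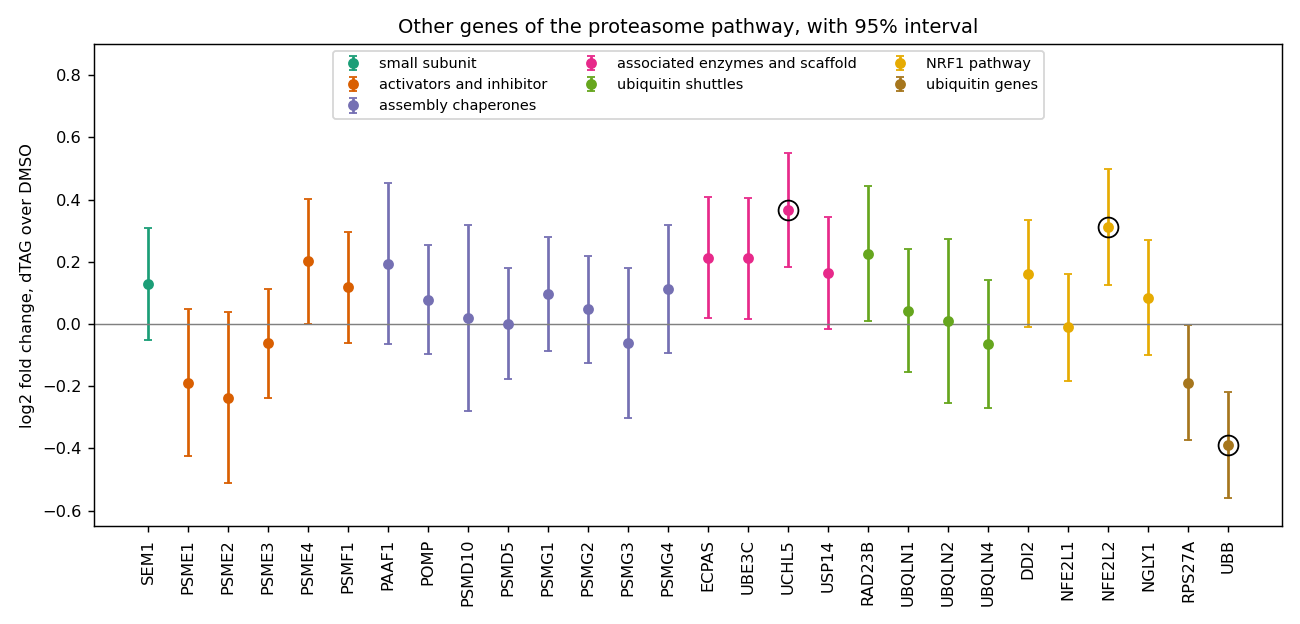
Log2 fold change of dTAG over DMSO with its 95% interval for 28 of the 31 tested genes that assemble, activate, supply or regulate the proteasome, coloured by list; circles mark called genes. UCHL5 and NFE2L2 are circled above 0 and UBB below 0.

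The 5 inducible and tissue-specific subunit genes did not reach 50 counts in all 4 libraries. The immunoproteasome genes had 14 and 17 counts in DMSO and 14 and 12 in dTAG for PSMB8, 87 and 94 against 67 and 44 for PSMB9, and 36 and 52 against 34 and 30 for PSMB10, of which 41.4% was free of a same-strand gene. Testis-specific PSMA8 had 3 to 7 counts and thymus-specific PSMB11 had 0 to 3. The constitutive catalytic genes PSMB5, PSMB6 and PSMB7 had at least 2070 counts in each of the same libraries. The assembly chaperone gene PSMD9 had 0 to 4 counts, with 0.264% of its interval free of same-strand genes, so its level was not measured.

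Divergent partners were found from the starts of the counted gene intervals. Of the 32 members, 6 had a gene on the other strand whose start lay within 1000 bp, or 18.8%. The share was 12.9% of all 19901 genes and 17.8% of the tested genes. The 6 include PSMA2, which was not tested. For PSMA1 and PSMC2 the interval start was not the canonical one. PSMA1, on the minus strand, starts at chr11:14643635 as an interval and at 14520386 as a canonical transcript. For PSMC2 these are chr7:103344254 and 103347643. Neither pair was therefore read from the canonical start. No partner was called. PSMA7 and its partner SS18L1, with starts 355 bp apart, had log2 fold changes of -0.12 and -0.12. In PSMC2 and DNAJC2 the values were -0.03 and 0.20, and in PSMD13 and SIRT3 they were -0.03 and -0.24. TBP, 961 bp from PSMB1, was at 0.11, PDE3B beside the interval start of PSMA1 at 0.15, and MRPL32, which faces the uncounted PSMA2, at -0.05.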

How the data were processed

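TT-Seq libraries from 4 samples, DMSO replicates 1 and 2 and dTAG replicates 1 and 2, were grouped by their titles. The deposited values are raw counts without normalization, which the authors obtained by trimming reads with Trim Galore 0.6.4, mapping them to hg38 with STAR and assigning them with featureCounts to whole protein-coding gene intervals and to 92 ERCC spike-ins (Subread 1.6.3). How strand and overlapping genes were handled was not given in the sources used here, and the counts of nested genes were examined for it. Gene starts in the table lay 1 base before those of GENCODE and are given 1-based.

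The analysis used edgeR 4.0.16 in R 4.3.3. The 12612 genes that reached 50 counts in every library were scaled by TMM (factors 0.970 to 1.05) and tested with the two-sided quasi-likelihood F test and Benjamini-Hochberg adjustment over all of them, with calls at an adjusted p under 0.05. The design held the treatment alone. CPM values use TMM-scaled library sizes, each SD is over 2 libraries, and 95% intervals come from the fit. The spike-in function and number of factors were not given in the sources used here, so spike-in scaling was an alternative, with DESeq2 1.42.0, upper-quartile factors, the likelihood ratio test, other count filters, removal of GC and length trends by lowess (span 0.3), a replicate block and leaving out each library. The procedure was tested on simulated data. Those data held no trend with GC content or length, so that test does not cover calls made under such trends. GC content was that of the whole gene interval.

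Values in every library are given for called members, for the highest and lowest fold change of each subcomplex, for catalytic subunits, ubiquitin receptors and PSMD14, and for the highest and lowest level per kilobase. PSMD12 was added after its values were seen. The members and all lists were chosen with earlier results of these data known. The values of a few genes of these lists are not reported here.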

Additional observations from a re-analysis of the deposited data

How the results depend on the processing

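For 19 named genes under 18 alternatives, 256 values kept their direction and side of the threshold. With the direction kept, 31 lost a call and 24 gained one, and 31 values changed sign. Among the values that changed sign, TRIM28 and UBB with ERCC totals also lost their calls. The count of called genes was 895 at first, and DESeq2 with its own scaling called 1273. The count was 0 with ERCC totals as library sizes (229 at an unadjusted p under 0.05, edgeR's quasi-likelihood test). It was 1593 with the likelihood ratio test, 1417 without a count filter, 2287 with the GC and length trend removed, and 68 to 5489 when 1 library was left out, the lowest without dTAG replicate 2 and the highest without DMSO replicate 1. Upper-quartile factors turned the split of 434 higher and 461 lower into 255 and 869. The members' median moved from -0.03 to -0.10 with upper-quartile factors, to 0.061 with the length trend alone removed and to 0.61 with ERCC totals, where the median of all genes was 0.63.

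Members called higher numbered 0 with upper-quartile factors, ERCC totals, the ERCC factor with either test, filterByExpr and the replicate block, 2 with the length trend removed, and 0 to 5 with a library left out. Members called lower numbered 3 with upper-quartile factors (PSMD2, PSMD3 and ADRM1), 1 with the ERCC factor under either test (PSMD2), 1 with the GC and length trend removed, and 0 to 5 with a library left out, the 5 of each direction without DMSO replicate 1. Related genes called numbered 0 with ERCC totals, 5 with the ERCC factor, 5 with the GC and length trend removed and 0 to 15 with a library left out. A fit with 1 library in a group assumes that it varies like the other group. PSMD14 had a log2 fold change of 0.26 with upper-quartile factors, 0.12 with the ERCC factor and 0.95 with ERCC totals, where it stood 0.32 above the median of all genes. The cause of these shifts was not tested.

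The difference of replicate 1 minus replicate 2 correlated at -0.30 between DMSO and dTAG over the tested genes. The replicate differences followed GC content with opposite signs, at a Spearman correlation of 0.75 in DMSO and -0.43 in dTAG. The value of -0.30 therefore cannot tell whether same-numbered libraries share more than a number. With the replicate block, 340 genes, 0 members and 1 related gene were called, and with the block and the GC and length trend removed 2634 genes, 2 members higher, 1 lower and 6 related genes. With the numbers crossed, an alternative chosen after seeing the data, 3190 genes, 3 members higher, 4 lower and 9 related genes were called, and with the trend removed as well 2710, 2, 1 and 7.

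Signs changed with ERCC totals for ADRM1 (0.41), PSMA1 (0.61), PSMA4 (0.50), PSMB4 (0.41), PSMB5 (0.57), PSMB6 (0.43), PSMC5 (0.48), PSMD2 (0.43), PSMD3 (0.43), TRIM28 (0.28) and UBB (0.25), each below the median of all genes there. With the GC and length trend removed, with or without either block, ADRM1 was at 0.080 and PSMD1 at -0.033. With the length trend removed PSMB4 was at 0.017, PSMB6 at 0.054 and PSMC5 at 0.031. With the ERCC factor under either test PSMB5 was at 0.11 and PSMD1 at -0.0085. PSMA1 was at 0.0024 with DESeq2 and ran from -0.12 to 0.11 with a library left out, above 0 without DMSO replicate 1 or dTAG replicate 1 (0.018). PSMB5 ran from -0.20 to 0.019, above 0 without DMSO replicate 2. PSMD4 was at -0.063 with upper-quartile factors and ran from -0.039 to 0.063, below 0 without dTAG replicate 2 or DMSO replicate 1 (-0.027).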
